A study of Mus musculus with 8 samples.

Results

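The genes described here are the Wnt ligands, their Frizzled and Lrp receptors, the R-spondins and their Lgr receptors, the secreted Wnt antagonists and 3 genes read as outputs of the pathway, in fibroblasts sorted from mouse lung. They were chosen by symbol from the gene names that the array files give (Wnt, Fzd, Sfrp, Dkk, Wif1, Frzb, Rspo, Lgr4 to Lgr6, Lrp5, Lrp6, Axin2, Lef1 and Tcf7). The rule took 64 probes of 51 genes, out of 23532 named genes on the array, and 41 of the 51 were bright enough to test. By role these were 14 of 19 ligands, 10 of 12 Frizzled and Lrp receptors, 6 of 7 R-spondin and Lgr genes, 8 of 10 secreted antagonists and all 3 readout genes.

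Wnt proteins are lipid-modified secreted signals that act over short distances. A Wnt binds a Frizzled receptor together with Lrp5 or Lrp6, and the cell then stops degrading beta-catenin, which enters the nucleus and acts with the TCF and LEF factors (Tcf7, Lef1, Tcf7l1 and Tcf7l2). Axin2 is a widely used target of that branch and feeds back on it by helping to degrade beta-catenin. R-spondins, through Lgr4, Lgr5 and Lgr6, keep Frizzled and Lrp proteins on the cell surface and so strengthen the signal. Sfrp proteins, Wif1 and Frzb bind Wnts outside the cell, and Dkk1, Dkk2 and Dkk4 bind the Lrp co-receptors. In the lung, mesenchymal cells are known as a source of Wnt ligands for the epithelium beside them.

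Expression was measured on 8 one-colour arrays, 2 for each of 3 sorted fibroblast types, named A, B and C, and 2 for pulmonary single cells, the lung cell suspension from which the fibroblasts were sorted. All cells came from adult female C57BL/6 mice aged 12 to 16 weeks. The sort used antibodies to E-Cadherin (epithelium), CD31, CD146 and Lyve-1 (endothelium and vessel walls), CD45 (leukocytes) and TER119 (red cells), and to Thy-1, Sca-1 and Pdgfra. The sources used here do not say which of these antigens each type carries, or how many mice stand behind a sample. Each sample held 50000 cells, its RNA was amplified from 10 ng, and the samples of a group were prepared independently of each other. Values are the log2 signal of the gene's brightest probe minus the 75th percentile of its array, called the scaled log2 signal, so that a difference of 1 is a doubling. They compare a gene between arrays and do not rank genes by abundance. A gene counted as called where its adjusted p (Benjamini-Hochberg) in the limma fit over all 17242 tested genes was under 0.05. In RNA from whole groups of cells, fewer cells of a type and less RNA per cell cannot be told apart.

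The 75th percentile of signal ranged from 110 to 182 units on the fibroblast arrays and was 126 and 250 units on the pulmonary arrays. Genes at least 2-fold apart on replicate arrays made up 5.12% for A, 5.48% for B and 20.8% for C fibroblasts, and 31.3% for pulmonary single cells. All 8 general fibroblast markers were higher in the sorted fibroblasts. The summed linear signal of the 10 leukocyte markers was 1.98 to 2.70 in fibroblasts and 321 to 357 in pulmonary single cells, and all 10 fell. The 10 alveolar epithelial markers summed to 6.29 to 17.7 in fibroblasts and 298 to 310 in pulmonary single cells, and 9 of them fell. The 10 endothelial markers summed to 5.35 to 12.5 in fibroblasts and 96.2 to 124 in pulmonary single cells, and all 10 fell. The part of these cell types in the differences given below was not tested. The marker lists include genes of antigens used in the sort: Pdgfra, Ptprc (CD45) and Pecam1 (CD31). Those genes are no independent check of the sort. All 6 fibroblast arrays share a slide and scan that no pulmonary array shares, so slide and cell group cannot be told apart in any comparison with pulmonary single cells; the comparisons between types lie within that slide.

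For 13 genes the array carries a pair of probes, and for Axin2 these did not give the same answer, so the start of each is shown with its place in the genome (mm9, the build named in the file headers, both on the plus strand of chromosome 11). The probe that stands for the gene, the brighter one, lies at chr11:108812034-108812093, is 60 bases long and has a GC content of 20.0%. The other lies 8107 bases nearer the start of the chromosome, at chr11:108803927-108803986, with a GC content of 48.3%. The first 30 bases of each are given 5′ to 3′.
Axin2 first probe: cttggtacaataattattgtaattaagaga
Axin2 second probe: tcctgggggaacagattattattgctactc

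Promoters were searched for words that the TCF and LEF factors are known to prefer, CTTTG followed by AA, AT, TA or TT, on both strands, in windows from 250 bases before to 50 bases after a start site (RefSeq, GRCm38.p6). The table held 41 windows of 34 members, and 6 of the 41 windows (14.6%) had a word, against 16.9% of all 32851 windows. Of 13 windows of members higher in fibroblasts than in pulmonary single cells, 3 had one (23.1%), and of 3 windows of members higher in the B than in the C type, none did. A word is a description of the letters only. The 250 bases before the start site are shown for a receptor and a ligand that rose in all 3 fibroblast types and hold a word, in capitals, and for Axin2, which has none in this window. They lie at chr1:59481897-59482146 (plus strand) for Fzd7, chr6:119449387-119449636 (minus strand) for one of the start sites of Wnt5b, and chr11:108920099-108920348 (plus strand) for Axin2.
Fzd7: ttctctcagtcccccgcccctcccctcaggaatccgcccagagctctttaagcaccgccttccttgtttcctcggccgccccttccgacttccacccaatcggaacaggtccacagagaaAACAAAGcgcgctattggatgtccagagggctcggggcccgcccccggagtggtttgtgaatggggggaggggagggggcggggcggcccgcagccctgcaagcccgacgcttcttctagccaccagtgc
Wnt5b: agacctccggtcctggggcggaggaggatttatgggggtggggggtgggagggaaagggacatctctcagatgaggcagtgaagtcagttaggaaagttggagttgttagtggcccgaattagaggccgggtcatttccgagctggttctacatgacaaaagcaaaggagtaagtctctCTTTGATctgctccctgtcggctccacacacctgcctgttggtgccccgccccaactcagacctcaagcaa
Axin2: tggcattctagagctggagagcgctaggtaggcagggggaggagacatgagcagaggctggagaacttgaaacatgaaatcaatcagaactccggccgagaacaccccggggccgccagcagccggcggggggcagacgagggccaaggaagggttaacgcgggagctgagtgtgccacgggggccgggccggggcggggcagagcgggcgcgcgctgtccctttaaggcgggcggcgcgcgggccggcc

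Fibroblasts, as the mean over their 3 types, were compared with pulmonary single cells first. Of the 41 members tested, 18 were higher in fibroblasts, where 20.7% of all genes were, and 5 were lower, where 16.4% of all genes were. The 18 held members of every role: 6 ligands, 5 receptors, 2 R-spondin or Lgr genes, 4 antagonists and Axin2. The median log2 difference was 0.95 over the members and 0.10 over all genes tested. The higher share depends on how arrays are scaled: with each array scaled to its median, the median of all genes moved to 0.46, with 5095 genes higher and 2006 lower in place of 3572 and 2823, and the members split 20 and 4. With the percentile taken over probes bright on all arrays, it moved to -0.21, with 2506 genes higher and 3841 lower, and the members split 17 and 6. Every member called here kept its sign under these scalings.

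**Figure D1:**
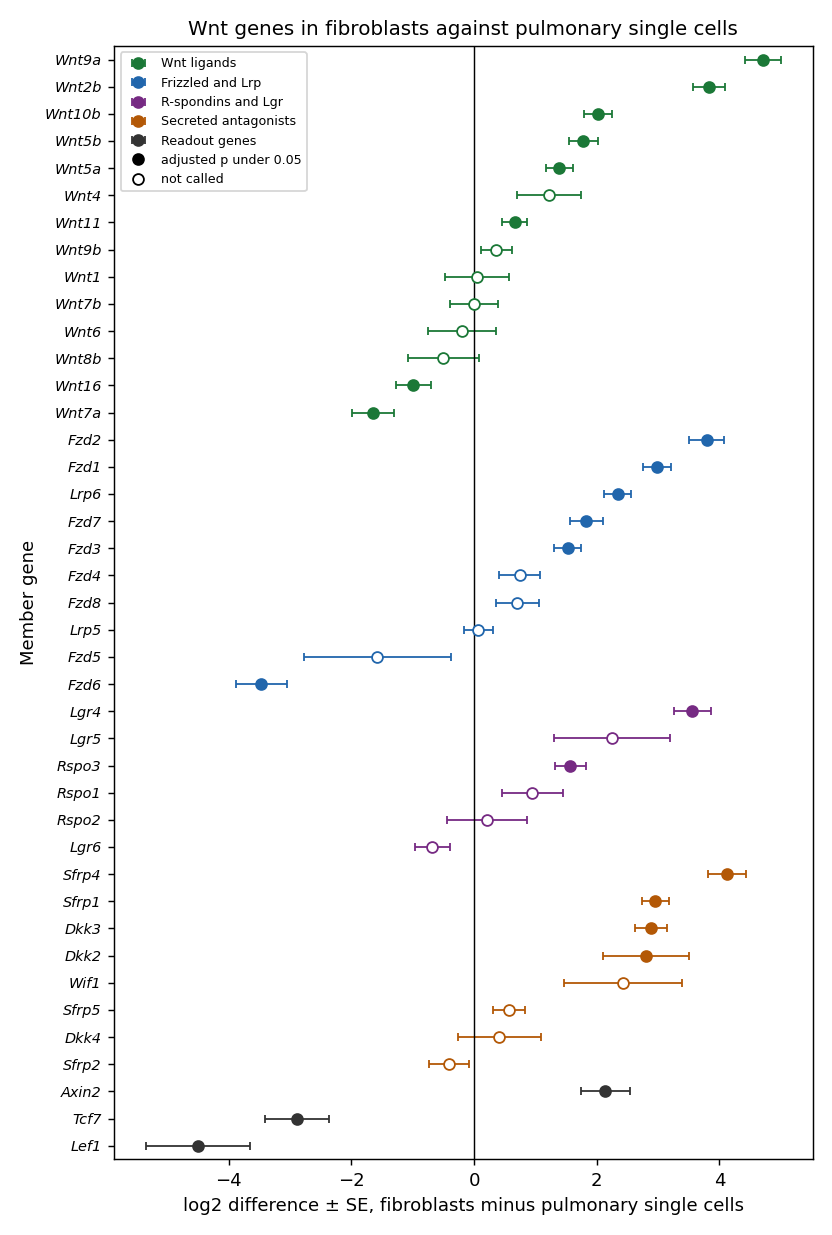
Log2 difference of each of the 41 tested members, fibroblasts (mean of 3 types) minus pulmonary single cells, with bars of 1 SE from the limma fit over 8 arrays; members are grouped by role from top to bottom, and filled points were called. Wnt9a (4.71), Sfrp4 (4.13), Wnt2b (3.83), Fzd2 (3.79) and Lgr4 (3.56) lie farthest to the right, and Lef1 (-4.50), Fzd6 (-3.47) and Tcf7 (-2.89) farthest to the left.

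Against pulmonary single cells, each fibroblast type alone gave a like count. In A-type cells 18 members were higher and 3 lower, where 15.1% and 11.9% of all genes were. In B-type cells 18 were higher and 4 lower, where 16.5% and 13.0% were. In C-type cells 17 were higher and 6 lower, where 15.0% and 13.9% were. These comparisons share the pulmonary arrays. In all 3 types 14 members were higher: Wnt2b, Wnt5b, Wnt9a, Fzd1, Fzd2, Fzd3, Fzd7, Lrp6, Lgr4, Rspo3, Dkk3, Sfrp1, Sfrp4 and Axin2. Fzd6, Lef1 and Tcf7 were lower in all 3. With normexp background correction, Fzd3 and Rspo3 were called in none of the 3 types (adjusted p 0.11 to 0.53). That correction was run with an offset of 50 units added to each intensity. A second probe of Lrp6 was not called in A (1.09, adjusted p = 0.0508) or C (0.97, adjusted p = 0.0642) with every probe tested. Nor was a second probe of Tcf7 in B (adjusted p = 0.0714) or C (adjusted p = 0.0652). Without the first B-type array, fewer members were called in the B type, with Fzd6, Lef1 and Tcf7 no longer among them. Fewer of all genes were called there as well.

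Wnt9a and Wnt2b were the ligands with differences above 3 on the log2 scale. Wnt9a is known from joint formation. Its scaled log2 signal was 1.20 and 1.30 in A-type, 1.43 and 1.25 in B-type and 0.52 and 0.41 in C-type fibroblasts, against -4.15 and -3.23 in pulmonary single cells, where 1 of 2 arrays was above background. The log2 difference was 4.71 ± 0.29 (SE, adjusted p = 5.51e-05), and 2.35 with normexp background correction, still called; Wnt2b stayed at 3.24 or more under every scaling and background setting. All 6 fibroblast arrays lay above both pulmonary arrays.

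Wnt2b, a ligand needed together with Wnt2 for the lung to form in the embryo, had 3.98 and 3.90 in A-type, 4.52 and 4.20 in B-type and 2.14 and 2.24 in C-type fibroblasts, against -0.65 and -0.03 in pulmonary single cells. It was higher by 3.83 ± 0.26 on the log2 scale (adjusted p = 7.33e-05), and the C-type arrays were the lowest of the fibroblast arrays. Its close relative Wnt2 could not be tested: its probe was above background on the first C-type array alone. Wnt10b, a beta-catenin ligand known from fat and bone, had -0.54 and -0.65 in A-type, 1.34 and 1.13 in B-type and -1.88 and -1.94 in C-type fibroblasts, against -2.65 and -2.24 in pulmonary single cells. It was higher by 2.02 ± 0.23 (adjusted p = 0.000697), or 1.16 with normexp and still called, and type by type it was called in A and in B, while the C-type difference of 0.53 was not.

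Wnt5a and Wnt5b are the ligands best known for signalling without beta-catenin. Wnt5b had 2.42 and 2.48 in A-type, 2.24 and 2.19 in B-type and 1.31 and 1.80 in C-type fibroblasts, against 0.15 and 0.43 in pulmonary single cells (log2 difference 1.78 ± 0.24, adjusted p = 0.00142). Wnt5a had 4.01 and 3.84 in A-type, 4.10 and 4.10 in B-type and 2.95 and 3.30 in C-type fibroblasts, against 2.35 and 2.32 in pulmonary single cells (1.39 ± 0.22, adjusted p = 0.00311). For both genes the fibroblast arrays did not overlap the pulmonary arrays. Against pulmonary cells alone, Wnt5a was called in the A and B types. Its C-type difference had no call. That difference was called with median scaling or the authors' table (1.20), trended robust variance (0.79) and normexp (0.64), with adjusted p 0.0236 to 0.0485. Wnt5b lost its C-type call without the second C-type array (1.02), as Wnt5a lost its A-type call without the first A-type array (1.51).

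Wnt11, another ligand of the beta-catenin-independent kind, had 0.32 and 0.23 in A-type and 0.37 and 0.36 in B-type fibroblasts, but -0.82 and -0.70 in C-type fibroblasts, against -0.68 and -0.71 in pulmonary single cells. The C-type and pulmonary arrays overlapped. Its mean difference of 0.66 ± 0.21 was just called (adjusted p = 0.0449) and was lost on leaving out any array other than the second pulmonary one, with adjusted p between 0.0503 and 0.121. With the percentile taken over probes bright on all arrays it was 0.35 (adjusted p = 0.23). A-type and B-type cells were each higher than pulmonary cells, by 0.97 (adjusted p = 0.0295) and 1.06 (adjusted p = 0.0208), calls that were also lost without either array of the A type or either of the B type, and with that percentile (0.68 and 0.74, adjusted p = 0.0951 and 0.0732).

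A pair of ligands fell. Wnt7a, a ligand known from limb and reproductive tract development, had -3.34 and -3.17 in A-type, -3.86 and -3.58 in B-type and -4.56 and -3.86 in C-type fibroblasts, against -1.59 and -2.56 in pulmonary single cells. Of the fibroblast arrays 3 of 6 were above background, and it was at least 2.71-fold lower (adjusted p = 0.00874), a call lost with normexp (-0.37, adjusted p = 0.219). Wnt16, a ligand known from bone, had -1.36 and -2.15 in A-type, -1.20 and -1.65 in B-type and -2.13 and -2.07 in C-type fibroblasts, against -0.82 and -0.72 in pulmonary single cells. It fell by 0.99 (SE 0.29, adjusted p = 0.033), and the call was lost without the second A-type array, either B-type array, the first C-type array or either pulmonary array (adjusted p 0.0515 to 0.0865), and under median and quantile scaling and normexp (-0.63, -0.80 and -0.45).

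The other ligands tested, Wnt1, Wnt4, Wnt6, Wnt7b, Wnt8b and Wnt9b, had log2 differences from -0.50 (Wnt8b) to 1.22 (Wnt4) and no call over the 3 types. Wnt1 shows how far the pulmonary arrays set some values: they gave 2.17 and 0.02, and the difference was 1.12 without the first and -1.03 without the second, each of which was called. Those Wnt1 values are of its brighter probe. A second probe of Wnt1, above background on all 8 arrays, had -0.55 and 0.11 in pulmonary single cells. It gave a difference of -0.01 (adjusted p = 0.976 with every probe tested). Wnt4 had a second probe at 1.36 (adjusted p = 0.0384 with every probe tested), where its first probe gave 1.22 (adjusted p = 0.107). In the C type alone, Wnt4 had 1.27 and -0.02, against -2.28 and -0.55 in pulmonary single cells, a difference of 2.04 just outside the threshold (adjusted p = 0.0508). That difference was called under 6 other settings, at 1.24 with normexp to 2.45 with the probes averaged (adjusted p = 0.00139), and on the second probe (2.85, adjusted p = 0.00686 with every probe tested). Wnt3, Wnt3a, Wnt8a and Wnt10a were above background on both arrays of no group.

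**Figure D2:**
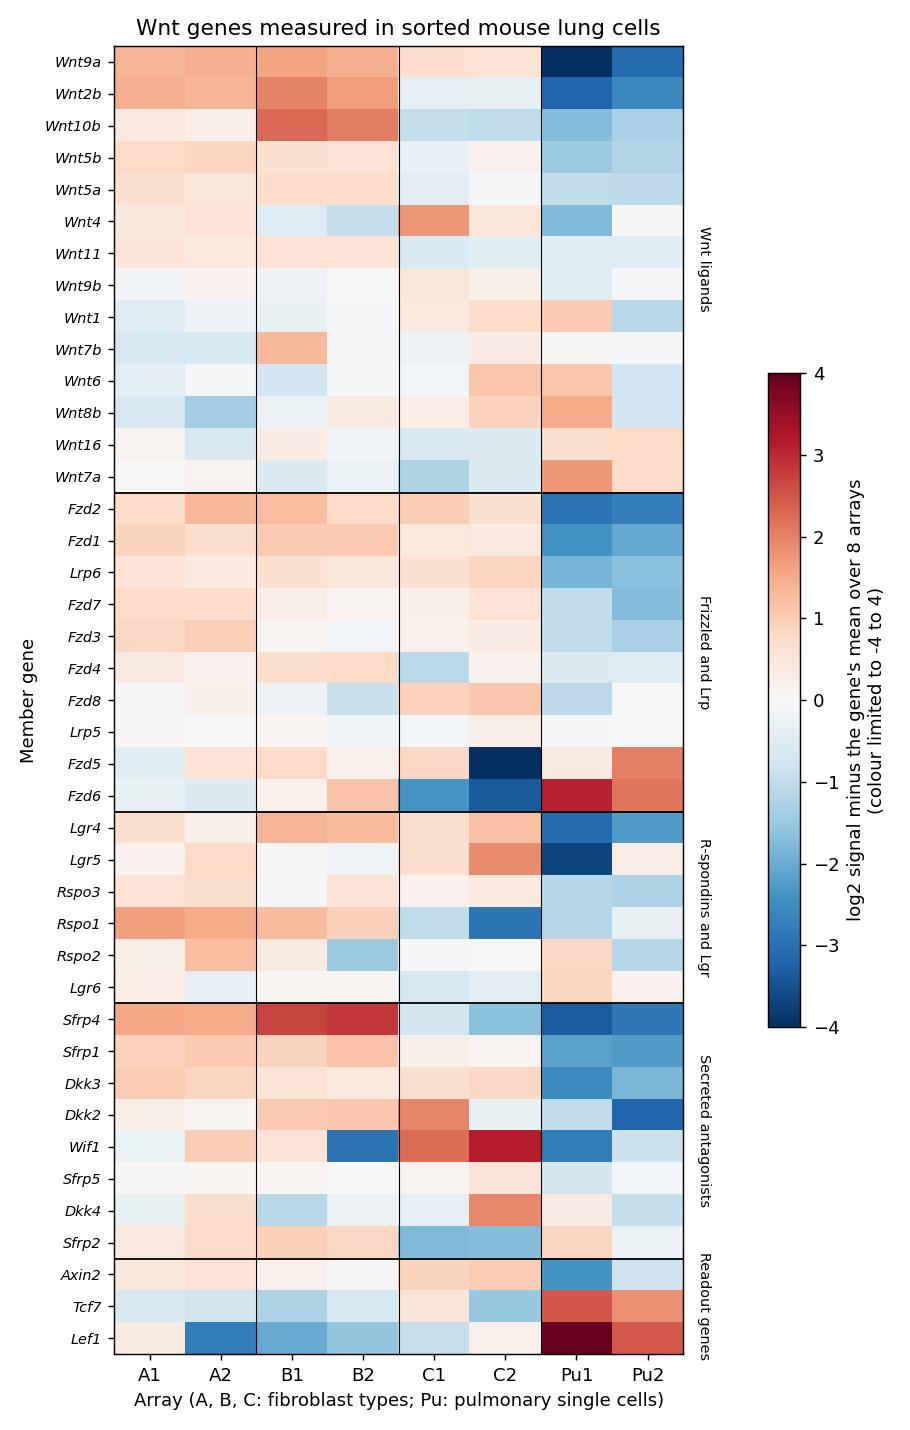
Scaled log2 signal of the 41 tested members (rows, grouped by role) on the 8 arrays (columns, fibroblast types left of pulmonary single cells), each row minus its own mean over the arrays, with colour limited to -4 to 4. Each of the 14 members higher in all 3 types has its 2 lowest values on the pulmonary arrays, and Sfrp4, Wnt10b and Wnt2b are reddest on the B-type arrays.

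Of the receptors, Fzd1, Fzd2, Fzd3, Fzd7 and Lrp6 rose in fibroblasts and Fzd6 fell. Fzd1, Fzd2 and Fzd7 form one related group of Frizzled receptors. Fzd2 had 3.14 and 3.75 in A-type, 3.66 and 3.21 in B-type and 3.40 and 3.03 in C-type fibroblasts, against -0.54 and -0.31 in pulmonary single cells. It was 13.8-fold higher (log2 difference 3.79 ± 0.28, adjusted p = 0.000102), and its second probe gave 3.37. Fzd1 had 2.55 and 2.33 in A-type, 2.71 and 2.71 in B-type and 2.07 and 2.03 in C-type fibroblasts, against -0.78 and -0.39 in pulmonary single cells (2.98 ± 0.23, adjusted p = 0.000116). For both genes every fibroblast array lay above both pulmonary arrays, and no difference between types was called.

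Fzd7, the third of that group, had 2.47 and 2.40 in A-type, 1.93 and 1.81 in B-type and 1.95 and 2.27 in C-type fibroblasts, against 0.66 and -0.05 in pulmonary single cells (1.83 ± 0.27, adjusted p = 0.00203, second probe 2.28). Its B-type call was lost without either B-type array (adjusted p 0.0713 and 0.0923). Lrp6, the co-receptor, had 3.38 and 3.18 in A-type, 3.40 and 3.25 in B-type and 3.39 and 3.65 in C-type fibroblasts, against 0.93 and 1.13 in pulmonary single cells. Its log2 difference was 2.34 ± 0.22 (adjusted p = 0.000315), and a second probe gave a smaller one, 1.05 (adjusted p = 0.0213 with every probe tested). The other co-receptor, Lrp5, had 2.29 to 2.70 on the fibroblast arrays and 2.36 and 2.41 on the pulmonary arrays, a difference of 0.07 ± 0.23 with no call (adjusted p = 0.827). The difference between the 2 co-receptors was not tested.

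Fzd3, a receptor tied to planar cell polarity and axon growth, was a dim gene. It had -1.89 and -1.74 in A-type, -2.61 and -2.80 in B-type and -2.51 and -2.38 in C-type fibroblasts, against -3.71 and -4.0 in pulmonary single cells, where 1 of 2 arrays was above background (1.53 ± 0.22, adjusted p = 0.00201). With normexp background correction the difference was 0.45 and no longer called (adjusted p = 0.105). The B-type call was lost without either A-type or either B-type array (adjusted p 0.0531 to 0.149).

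Fzd6, which is tied to polarity of hair and epithelium, was the receptor that fell. It had -1.58 and -1.85 in A-type, -1.09 and -0.15 in B-type and -3.64 and -4.65 in C-type fibroblasts, against 1.77 and 0.85 in pulmonary single cells. Neither C-type array was above background. It was at least 9.51-fold lower over the 3 types (log2 difference -3.47 ± 0.42, adjusted p = 0.000872), and at least 27.7-fold lower in the C type. With normexp these falls were -1.99 and -2.43, both called. The B-type fall, -1.93 (adjusted p = 0.0289), lost its call without either A-type array, the first B-type array or the first pulmonary array. Epithelial markers fell in the same comparison (9 of 10 alveolar, 7 of 8 airway), and their part in the falls of Fzd6 and Wnt7a was not tested.

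Fzd4, Fzd5 and Fzd8 had no call over the 3 types, with differences of 0.74, -1.58 and 0.70. Fzd8 was higher in the C type alone against pulmonary cells (-0.18 and -0.03, against -2.15 and -1.11; 1.52, adjusted p = 0.0349, or 0.84 with normexp), a call that held only when the second pulmonary array was the one left out. The C-type arrays of Fzd5 lay far apart, at -0.35 and -5.42; the difference over the 3 types was -2.43 (adjusted p = 0.0171) without the first and -0.74 (adjusted p = 0.318) without the second. Its second probe, above background on all 8 arrays, had -1.39 and -1.74 in C-type fibroblasts and gave a difference of -0.27 with no call (adjusted p = 0.641 with every probe tested). Fzd9 and Fzd10 were too dim to test.

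Of the genes that amplify Wnt signals, Lgr4 and Rspo3 rose in all 3 types. Lgr4, a broadly expressed R-spondin receptor, had -0.35 and -0.78 in A-type, 0.34 and 0.26 in B-type and -0.31 and 0.16 in C-type fibroblasts, against -4.09 and -3.27 in pulmonary single cells, where 1 of 2 arrays was above background. It was 11.8-fold higher (log2 difference 3.56 ± 0.30, adjusted p = 0.000187), and the log2 difference was 1.56 with normexp, still called. Rspo3, the ligand, had -2.73 and -2.60 in A-type, -3.38 and -2.77 in B-type and -3.15 and -2.91 in C-type fibroblasts, against -4.44 and -4.54 in pulmonary single cells, neither of them above background. It was at least 2.28-fold higher (adjusted p = 0.00308), but the difference was 0.41 and not called with normexp background correction (adjusted p = 0.145). In each type alone, the call was lost without the second array of that type (adjusted p 0.0528 to 0.121).

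Rspo1, an R-spondin ligand, had 1.45 and 1.30 in A-type and 1.08 and 0.75 in B-type fibroblasts, -1.21 and -3.12 in C-type fibroblasts, and -1.33 and -0.50 in pulmonary single cells. Both A-type and both B-type arrays lay above all 4 others. It was called against pulmonary cells in the A type alone (2.28, adjusted p = 0.0323). That call was lost without either A-type array, either B-type array or the first pulmonary array. In the B type the difference of 1.83 had no call. It was called there with median scaling, the authors' table, trended robust variance or only the groups compared (adjusted p 0.0337 to 0.0459). With normexp the B-type difference was 1.22 and called (adjusted p = 0.00587).

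Lgr5, the stem cell marker of several epithelia, had -2.06 and -1.41 in A-type, -2.18 and -2.39 in B-type and -1.56 and -0.33 in C-type fibroblasts, against -5.89 and -1.91 in pulmonary single cells. The second pulmonary array lay among the fibroblast arrays, and the difference of 2.25 was not called (adjusted p = 0.102). Without that array it was 4.23 (adjusted p = 0.00262). Lgr6 and Rspo2 had no call, at -0.68 and 0.21, and Rspo4 was not tested.

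The secreted antagonists showed the largest median of the roles that hold over 3 genes, 2.62 on the log2 scale over the 8 tested. That median lies between Dkk2 (2.80) and Wif1 (2.43), both dim in pulmonary single cells. With normexp background correction these 2 differences were 0.71 and 0.80. Sfrp1, Sfrp4, Dkk3 and Dkk2 rose and none fell over the 3 types. Sfrp4 had 2.40 and 2.31 in A-type, 3.54 and 3.67 in B-type and 0.12 and -0.80 in C-type fibroblasts, against -2.48 and -2.03 in pulmonary single cells. It was 17.5-fold higher over the 3 types (4.13 ± 0.31, adjusted p = 0.000104), 24.4-fold in A-type, 58.1-fold in B-type and 3.78-fold in C-type cells, the last falling to 1.03 on the log2 scale with normexp, still called.

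Sfrp1 had 0.90 and 1.02 in A-type, 0.86 and 1.12 in B-type and 0.20 and 0.11 in C-type fibroblasts, against -2.18 and -2.31 in pulmonary single cells (2.95 ± 0.22, adjusted p = 0.000103, or 1.70 with normexp). Dkk3, a Dkk relative whose part in Wnt signalling is less settled, had 2.95 and 2.80 in A-type, 2.49 and 2.36 in B-type and 2.58 and 2.76 in C-type fibroblasts, against -0.59 and 0.12 in pulmonary single cells (2.89 ± 0.26, adjusted p = 0.000253). For both genes all 6 fibroblast arrays lay at least 2 log2 units above the pulmonary arrays. Dkk2 was dimmer, with -3.04 and -3.20 in A-type, -2.27 and -2.22 in B-type and -1.35 and -3.60 in C-type fibroblasts, against -4.34 and -6.48 in pulmonary single cells, neither above background. It was at least 2.82-fold higher (adjusted p = 0.0199), and not called without the second pulmonary array (1.73, adjusted p = 0.123) or with normexp (0.71, adjusted p = 0.0556). Its B-type and C-type calls were also lost without any 1 of the A-type or B-type arrays, and the C-type call without the first C-type array.

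Of the other Sfrp genes, Sfrp2 and Sfrp5 had no call over the 3 types. Sfrp2 had 1.66 and 2.00 in A-type, 2.20 and 2.08 in B-type and -0.51 and -0.48 in C-type fibroblasts, against 2.13 and 1.01 in pulmonary single cells. A-type and B-type arrays overlapped the pulmonary range, and the C type lay below it, lower by 2.06 on the log2 scale (SE 0.40, adjusted p = 0.00942). Wif1 had -3.51 and -2.25 in A-type, -2.67 and -6.18 in B-type and -1.01 and -0.10 in C-type fibroblasts, against -6.03 and -4.08 in pulmonary single cells, where 1 of 2 arrays was above background. It was highest in the C type, by 4.50 against pulmonary cells (SE 1.17, adjusted p = 0.0279), or 10.5-fold with the dim array set to the floor of detection in place of 22.6-fold. With normexp it was 1.64, still called. That call was lost without either C-type array or the first pulmonary array. Sfrp5 (0.57, adjusted p = 0.127) and Dkk4 were not called, and Dkk1 and Frzb were above background on no array.

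The 3 readout genes split. Axin2 rose by its first probe, with 1.24 and 1.37 in A-type, 0.99 and 0.81 in B-type and 1.67 and 1.80 in C-type fibroblasts, against -1.62 and -0.04 in pulmonary single cells (2.14 ± 0.40, adjusted p = 0.00618). The pulmonary arrays lay far apart, and the difference was 1.35 without the first and 2.94 without the second, called both times. The second probe, above background on all 8 arrays, gave -1.67 and -1.30 in A-type, -1.55 and -1.91 in B-type and -0.62 and -0.38 in C-type fibroblasts, against -1.33 and -1.22 in pulmonary single cells. Its difference was 0.03 (adjusted p = 0.932 with every probe tested), and the A-type and B-type arrays overlapped the pulmonary ones or lay below them. On both probes the C-type arrays were the highest of all 8. The call for Axin2 therefore rests on the first probe, whose start is printed above. Type by type, its A-type call was lost without either A-type array (adjusted p 0.0853 and 0.111) and its B-type call without any 1 fibroblast array (0.0515 to 0.172).

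Lef1 and Tcf7, transcription factors of the pathway that are abundant in T cells, fell. Lef1 had -2.92 and -6.04 in A-type, -5.29 and -4.82 in B-type and -4.18 and -3.07 in C-type fibroblasts, against 1.01 and -0.80 in pulmonary single cells. It entered the test through the pulmonary arrays alone, since no fibroblast type had both of its arrays above background. A second probe of Lef1 was above background on 2 arrays and was not tested. That probe had means of -5.88, -5.15 and -3.58 in the A, B and C types and -4.0 in pulmonary single cells. By the first probe, with 2 of 6 fibroblast arrays above background, Lef1 was at least 13.3-fold lower (adjusted p = 0.00629). Without the first pulmonary array the fall was -3.59 and not called (adjusted p = 0.0599), and with normexp it was -1.74 and called (adjusted p = 0.00337). Tcf7 had -1.23 and -1.34 in A-type, -1.83 and -1.31 in B-type and -0.09 and -2.10 in C-type fibroblasts, against 1.90 and 1.24 in pulmonary single cells (-2.89 ± 0.52, adjusted p = 0.00497). Its second probe, above background on 5 arrays, gave -3.55 (adjusted p = 0.0244 with every probe tested). That probe was not called in B (-3.34, adjusted p = 0.0714) or C (-3.41, adjusted p = 0.0652). In single types, the calls of both genes were lost without the first pulmonary array, Lef1 also without the second A-type array in A, the first B-type array in B, and any B-type or C-type array in C, and Tcf7 also without either A-type array in A and the first B-type array in B. All 10 leukocyte markers, given above as sums, fell in the same comparison. Their part in the fall of Lef1 and Tcf7 was not tested.

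**Figure D3:**
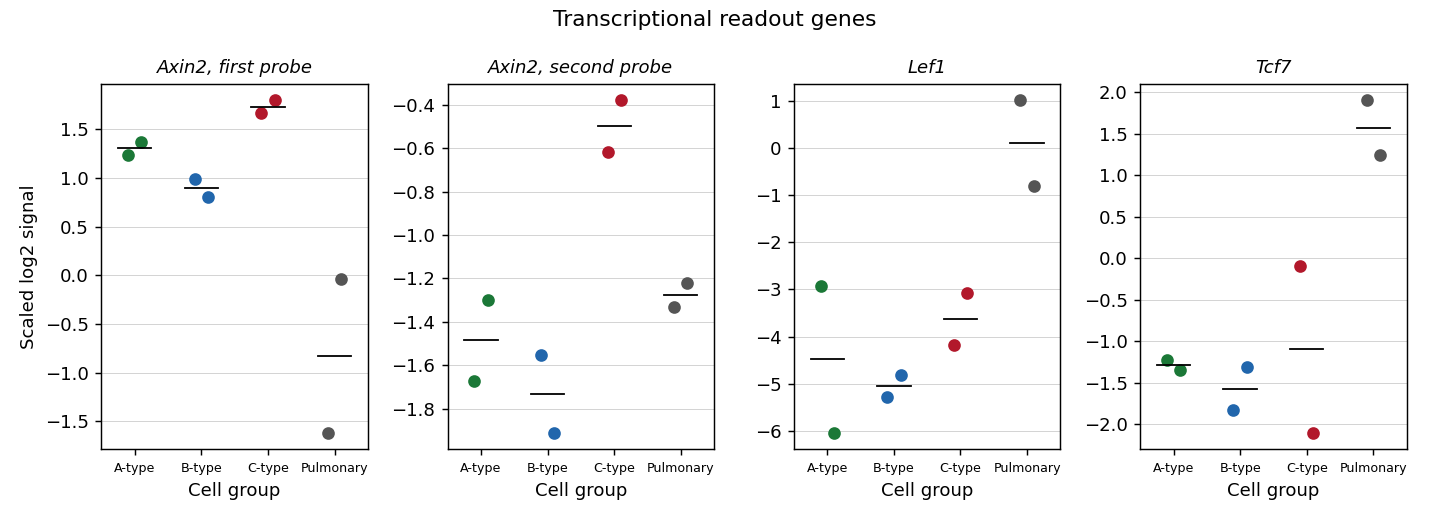
Scaled log2 signal of both Axin2 probes, Lef1 and Tcf7 on each array (points) with the mean of each group's 2 arrays (bars); each panel has its own vertical axis. The first Axin2 probe is higher on all 6 fibroblast arrays than on the pulmonary arrays, its second probe lies above the pulmonary arrays in the C type alone, and Lef1 and Tcf7 are highest in pulmonary single cells.

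Between the fibroblast types, the members called were 0 for A against B, 1 for A against C and 5 for B against C; how far the types differ was not compared between these pairs. In limma 0 of 41 members were called between A-type and B-type cells, where 0.0% of all genes were; at an unadjusted p under 0.05 there were 4 members (Fzd3, Sfrp4, Wnt10b and Wnt7b) and 562 of 17242 genes. With array weights, 2 members were lower in the A type, Wnt10b (-1.83, adjusted p = 0.00634) and Sfrp4 (-1.25, adjusted p = 0.0338), where 146 of 17242 genes were higher and 90 lower. Between A-type and C-type cells 1 member, Sfrp4, was higher in A and 0 were lower, where 0.273% and 0.116% of all genes were; at an unadjusted p under 0.05, 10 were higher and 0 lower, where 7.65% and 5.39% of all genes were. Between B-type and C-type cells 5 were higher in B and 0 were lower, where 1.27% and 1.18% were. The 5 were Sfrp4, Wnt10b, Fzd6, Wnt2b and Sfrp2; at an unadjusted p under 0.05, 12 were higher and 3 lower, where 8.83% and 6.42% of all genes were. Under other settings, Wif1 was lower in B than in C with normexp (-1.35, adjusted p = 0.033) and Wnt4 with a gene's probes averaged (-2.29, adjusted p = 0.0129). Higher in B were Rspo1, given below, Wnt5a with normexp (1.06, adjusted p = 0.0252) and Wnt11 with array weights (1.12, adjusted p = 0.0464).

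For Sfrp4, whose B-type, A-type and C-type arrays did not overlap, B minus C was 3.94 ± 0.37 (adjusted p = 0.00486), a 15.4-fold difference. A minus C was 2.69 ± 0.37 (adjusted p = 0.0473), a call lost without either A-type array, either B-type array or the second C-type array (adjusted p 0.0988 to 0.352). For Wnt10b, B minus C was 3.15 ± 0.28 (adjusted p = 0.00443), an 8.85-fold difference (1.91 on the log2 scale with normexp, still called), and A lay between (A minus C 1.32, adjusted p = 0.114). The B minus C calls of Sfrp4 and Wnt10b were lost without either B-type array, which leaves 1 array in the B type, with adjusted p of 0.0624 to 0.0678 and differences of 3.04 to 4.0.

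Fzd6 was at least 7.25-fold higher in B-type than in C-type cells (adjusted p = 0.0193), since no C-type array was above background, and the call was lost with normexp (0.96, adjusted p = 0.14). Sfrp2 was 6.21-fold higher (2.63 ± 0.40, adjusted p = 0.0222) and Wnt2b 4.49-fold higher (2.17 ± 0.32, adjusted p = 0.0193). All 3 calls were lost without either A-type array, either B-type array or the second C-type array, with adjusted p of 0.0551 to 0.197. Against the C type, the A type showed the same sign for each with no call: 2.43 for Fzd6 (adjusted p = 0.11), 2.32 for Sfrp2 (adjusted p = 0.0688) and 1.75 for Wnt2b (adjusted p = 0.0774). The A minus C differences of Sfrp2 and Wnt2b were called with normexp (1.86 and 1.77, adjusted p = 0.0243 and 0.00981), trended robust variance and array weights.

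Rspo1 had a large difference without a call, 3.54 ± 0.61 for A minus C (adjusted p = 0.0698) and 3.08 ± 0.61 for B minus C (adjusted p = 0.0558), with a wide gap between the C-type arrays. Without the first C-type array both were called, at 4.49 (adjusted p = 0.0184) and 4.03 (adjusted p = 0.0121). Both Rspo1 differences were also called with normexp (2.04 and 1.65, adjusted p = 0.00919 and 0.00706), trended robust variance and array weights. In the other direction, Wif1 and Fzd8 had negative B minus C differences of -3.87 and -1.55, neither called (adjusted p = 0.17 and 0.129).

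**Figure D4:**
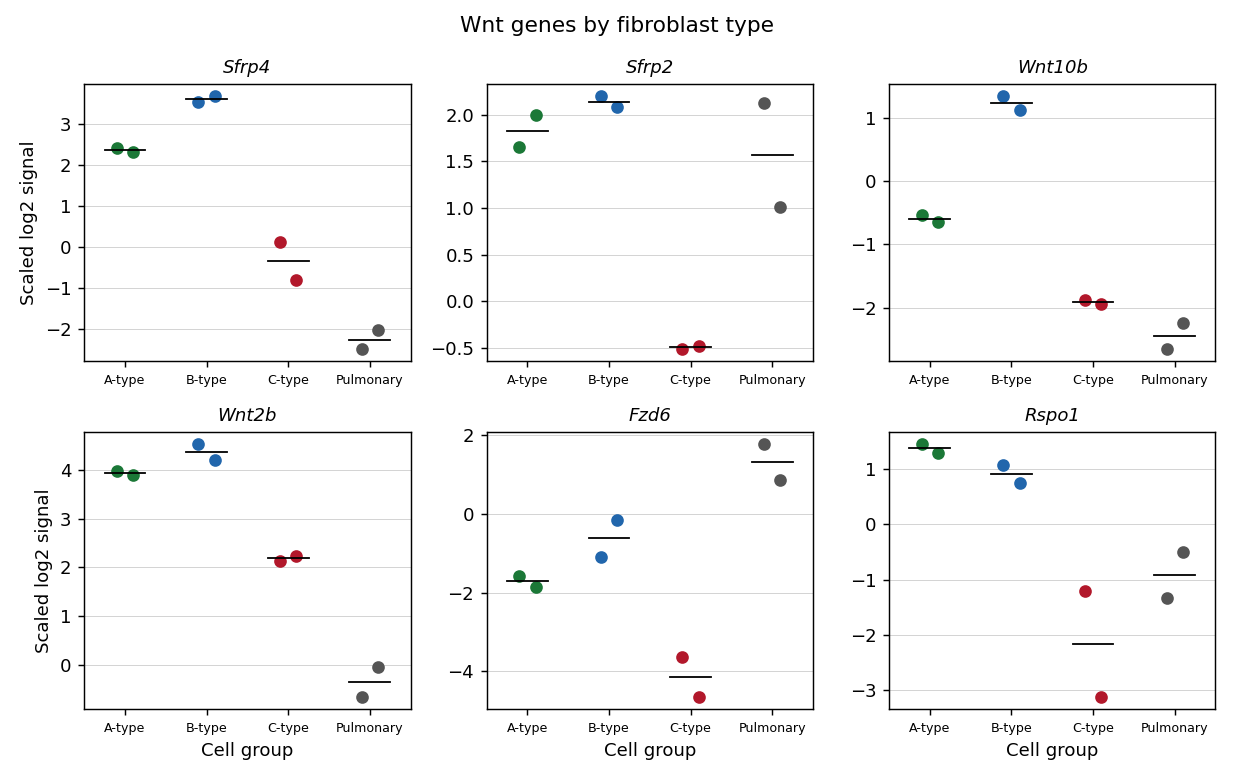
Scaled log2 signal of Sfrp4, Sfrp2, Wnt10b, Wnt2b, Fzd6 and Rspo1 on each array (points) with the mean of each group's 2 arrays (bars); each panel has its own vertical axis. In all 6 genes both C-type arrays lie below all 4 A-type and B-type arrays, and Sfrp2 and Fzd6 in pulmonary single cells lie above the C type.

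Markers of adventitial and alveolar fibroblasts also differed between the types. The summed linear signal of 8 markers of adventitial fibroblasts, the cells around vessels and airways, was 204 and 231 in A-type, 314 and 277 in B-type and 62.8 and 42.7 in C-type cells, and 4 of the 8 were higher in B than in C. The sum for 8 markers of alveolar fibroblasts was 287 and 335 in A-type, 220 and 185 in B-type and 469 and 484 in C-type cells, and 4 of the 8 were lower in B than in C. Of 7 markers of myofibroblasts and peribronchial fibroblasts, 1 was higher and 1 lower in B than in C. The adventitial list holds Ly6a, the gene of Sca-1, an antigen used in the sort. The part of these fibroblast kinds in the differences of the Wnt genes was not tested.

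Around the members, 9 of 16 tested genes that handle Wnt proteins outside the cell were higher in fibroblasts than in pulmonary single cells and 1 was lower, where 20.7% and 16.4% of all genes were. For this and the other lists around the members, no other setting of scaling, background or model was examined, nor any array left out. Gpc3 and Gpc6, glypicans of the cell surface, rose by 3.40 and 3.12, and Trabd2b, also called Tiki2, which cleaves Wnt proteins, by 2.88. Wls, the carrier that Wnts need for secretion, rose by 1.17 (adjusted p = 0.0105). Rnf43, which removes Frizzled receptors from the surface and is held back by R-spondins, was at least 3.25-fold lower.

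Of 16 receptors and polarity genes of the beta-catenin-independent branch, 5 rose and 2 fell, and of 20 genes that carry the signal inside the cell 6 rose and 2 fell, against the same 20.7% and 16.4% of all genes. Ror2 and Ryk, receptors for Wnt5a, rose by 1.41 and 1.51, and the formin Daam1 by 1.70. Celsr1, a cadherin of epithelial polarity, was at least 9.28-fold lower, and Intu fell by 1.72. Amer1, Fbxw11 and Dvl1, which act inside the cell, rose by 1.74, 1.45 and 1.22, while Frat2 fell by 1.72 and Frat1 was at least 2.45-fold lower.

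Of 14 nuclear partners of beta-catenin, 5 rose and 3 fell, where 20.7% and 16.4% of all genes did. The TCF family itself divided: Tcf7l1 was higher by 2.23 ± 0.33 (adjusted p = 0.00213) and Tcf7l2 lower by 1.00 on the log2 scale (SE 0.25, adjusted p = 0.0205), beside the falls of Lef1 and Tcf7. Pygo1, a co-activator, rose by 1.52, while the co-repressor Tle4 fell by 2.13 and the acetyltransferase Ep300 by 1.14. Of 13 genes used as pathway targets, 7 were higher and 3 lower, beside the same shares of all genes. Twist1 was at least 4.95-fold and Fgf9 at least 1.98-fold higher, Ccn4, also called Wisp1, rose by 3.05, and Ccnd1, Nkd1 and Cd44 fell by 1.87, 1.14 and 1.04.

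Between types, few of these genes were called. In B against C, Cthrc1, a secreted partner of Wnt and Ror2, was at least 2.48-fold higher, and Tpbg, which inhibits Wnt signalling at the membrane, was higher by 1.86. Intu was higher by 2.43, while Ptk7, a polarity receptor, fell by 1.81. Among the targets Fgf9 was at least 3.68-fold higher, and Tnfrsf19, also called Troy, fell by 3.46 (adjusted p = 0.00432). Fgf9 was also at least 3.33-fold higher in A than in C, and no gene of these lists was called between A and B.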

How the data were processed

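Cy3-labelled cDNA from 8 samples was hybridised to 8 one-colour Agilent arrays. Per the file headers, Agilent Feature Extraction 10.10.1.1 gave each spot a background-subtracted, detrended intensity and calls for background, saturation and outliers. The log2 values of the authors' deposited table equal these intensities less a constant for each array (within 0.02 for at least 99.657% of probes, medians 4.84 to 4.85); how it was scaled is not stated, and the table served as an alternative.

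The log2 intensity less each array's 75th percentile was used. Control spots and 30 probes with outlier spots were left out, and 0 spots were saturated. Probes were named by accession through RefSeq, otherwise by the symbol in the files. Genes were tested on their brightest probe among those that exceeded background well on both arrays of some group. limma 3.58.1 in R 4.3.3 fitted the 4 group means over 17242 genes (4 residual and 3.069 prior degrees of freedom), with Benjamini-Hochberg adjustment in each of 7 comparisons, and the steps were tested on simulated data. Where no array of the dimmer group was above background, a fold is a bound ("at least") against the higher of the probe's signal and the lowest signal above background on each array. A fold over the 3 types is a bound where any of them has no such array. Where only some arrays were, the fold uses them as they stand. Python 3.11.15, numpy 2.4.6, pandas 2.3.3 and matplotlib 3.10.9 made the tables and figures.

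The members, the pathway and marker lists and the tests were chosen with earlier results of these data known. Members called in any comparison are described array by array, and of each pathway list up to 3 called genes of the largest size in each direction; Wls was named after its value was seen. Nothing in the labels says that samples of a group came from separate mice, so p-values measure the spread between these samples only, and 2 arrays a group limit the precision. Replicate numbers did not pair the samples (correlations of deviations from -0.082 to 0.058).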

Additional observations from a re-analysis of the deposited data

How the results depend on the processing

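Of 95 member differences called, none changed sign under any of 21 settings, 39 lost their call under at least 1 of 13 settings of scaling, background, filter, probe choice or model, and 35 under at least 1 that left out an array. Fibroblasts against pulmonary cells gave 23 of 41 members called, and 15 of the 27 that could be tested when all 8 arrays had to be above background; leaving out 1 array gave 21 to 29. A-type against pulmonary cells gave 21, and 15 to 26 without 1 array. B-type gave 22, and 13 to 23. C-type gave 23, then 14 with array weights and 11 with only the groups compared, and 18 to 25 without 1 array. A against B gave 0, and 2 with array weights; no left-out array changed the 0. A against C gave 1, then 0 with median or quantile scaling, the authors' table, no filter on dim probes, every probe tested, only the groups compared or the replicate block, 4 with normexp, trended robust variance or array weights, and 0 to 3 without 1 array. B against C gave 5, then 2 with only the groups compared, and 0 to 7 without 1 array. Counts over all 17242 genes moved too. With only the groups compared, 53 genes were higher and 75 lower in B against C, in place of 219 and 204. In A against C they were 0 and 0, in place of 47 and 20. For the C type against pulmonary cells they were 916 and 1343, in place of 2594 and 2390. In B against C, fewer of all genes were also called without either B-type array. A setting that leaves 1 array in a group assumes that it varies like the others. The only value that turned to a called opposite sign was Wnt1, fibroblasts against pulmonary cells, with no call on all arrays, -1.03 without the second pulmonary array and 1.12 without the first. These Wnt1 values are of its brighter probe, and its second probe gave -0.01 with no array left out. The replicate block moved no other count by over 1.5 times (22 members for fibroblasts against pulmonary cells), and the numbers did not pair the samples. The cause of these shifts was not tested. A slide block could not be fitted, since one slide holds only pulmonary arrays. The offset of 50 units in the normexp setting by itself makes log2 differences smaller, most of all in dim genes. How much of the shrinkage given next is due to the offset was not tested. Normexp background correction shrank 11 of the 23 called differences over the 3 types by over 1.5 times: Dkk2, Fzd3, Rspo3, Wnt7a and Wnt16 were 0.71, 0.45, 0.41, -0.37 and -0.45, none called, while Fzd6, Lef1, Lgr4, Sfrp1, Wnt10b and Wnt9a, given with their values above, stayed called.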
